A study of Mus musculus with 96 samples.

Results

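This account follows 10 transcripts whose products shape mitotic chromosomes, in single cells of the mouse lung line C10. They are Mki67, Top2a, the shared condensin subunits Smc2 and Smc4, the condensin I subunits Ncapd2, Ncapg and Ncaph, and the condensin II subunits Ncapd3, Ncapg2 and Ncaph2. They were taken by gene symbol, and all 10 were found among the 40202 genes listed in every file. The series has 96 libraries, each from 1 sorted cell: 48 untreated cells, here called control, and 48 cells given RO-3306 at a labelled dose of 10 nM for 36 h. RO-3306 is sold as an inhibitor of CDK1, the kinase that drives entry into mitosis. The files hold no readout of CDK1 activity, and the labels give no genotype, clone, passage or culture, so each treatment was handled as 1 sample, no p-value was computed, and every interval below is a 95% interval that covers counting error only.

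Ki-67, the product of Mki67, is a large protein that coats the surface of mitotic chromosomes, and it is widely used to mark proliferating cells. Topoisomerase II alpha, the product of Top2a, passes one DNA duplex through another and so untangles sister chromatids. Condensins are ring-shaped ATPases that extrude loops of DNA: both kinds share the SMC2 and SMC4 arms, condensin I adds NCAPH, NCAPD2 and NCAPG and reaches chromosomes after the nuclear envelope breaks down, and condensin II adds NCAPH2, NCAPD3 and NCAPG2 and is nuclear throughout interphase. Transcripts of several of these genes are known to peak in G2 and mitosis, and many promoters with that timing carry CCAAT boxes and a CHR element, whose core is TTTGAA or TTTAAA.

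The promoters below show where those words occur. RefSeq promoter windows on GRCm38.p6 were found for 9 of the 10 members. Each line gives the 250 bases before the annotated start on the gene's own strand, 5′ to 3′, with every CCAAT box and every CHR core on either strand in capitals (a word on the other strand appears as its reverse complement). Mki67 (chr7:135716380-135716629, minus strand) had the largest difference, Top2a (chr11:99024190-99024439, minus strand) has the most CCAAT words, and Ncaph2 (chr15:89355469-89355718, plus strand) had the smallest difference and holds neither motif.
Mki67: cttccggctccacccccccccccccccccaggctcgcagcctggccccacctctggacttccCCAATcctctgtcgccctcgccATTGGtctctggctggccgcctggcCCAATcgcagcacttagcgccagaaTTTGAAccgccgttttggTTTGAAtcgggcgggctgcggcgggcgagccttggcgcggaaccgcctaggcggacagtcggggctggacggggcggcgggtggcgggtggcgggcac
Top2a: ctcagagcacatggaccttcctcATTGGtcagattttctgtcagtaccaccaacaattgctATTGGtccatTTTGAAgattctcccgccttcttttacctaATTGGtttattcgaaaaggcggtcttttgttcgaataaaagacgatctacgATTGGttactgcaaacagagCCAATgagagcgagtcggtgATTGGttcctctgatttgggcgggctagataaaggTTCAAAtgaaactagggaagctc
Ncaph2: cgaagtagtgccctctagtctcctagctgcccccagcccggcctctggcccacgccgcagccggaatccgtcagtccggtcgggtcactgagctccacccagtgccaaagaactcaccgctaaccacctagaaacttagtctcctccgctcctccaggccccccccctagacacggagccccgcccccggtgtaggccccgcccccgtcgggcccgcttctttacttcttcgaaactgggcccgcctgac
Mki67 held 3 CCAAT words and 2 TTTGAA words, the latter beginning 116 and 98 bases before the start. Top2a held 6 CCAAT words and 2 TTTGAA words, 1 of them beginning 23 bases before the start. Smc2, Ncapd2 and Ncapg also held both motifs, so 5 of 9 members did, against 8.78% of all 32851 windows of this length. A CCAAT word alone was in 33.9% of all windows and a TTTGAA or TTTAAA word in 25.2%. The windows of Ncaph and Ncaph2 and the first of 2 windows listed for Ncapd3 held neither, while that of Ncapg2 held 1 TTTGAA word. A match describes the letters only, and no binding was measured. Members with both motifs had log2 ratios of RO-3306 over control of -2.98 (Mki67), -1.21 (Ncapd2), -1.09 (Top2a), -0.73 (Ncapg) and -0.55 (Smc2). For Ncapd3, Ncapg2, Ncaph and Ncaph2 the ratios were -1.05, -0.77, -0.50 and -0.48. A link between motif and ratio was not tested.

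Cells were kept when they had at least 50000 counts and 1000 genes with a count, which left 29 control and 37 RO-3306 cells. Kept control cells held 59979 to 6457210 counts (median 1753430) and kept RO-3306 cells 295005 to 5321880 (median 2234310). The median number of genes with a count was 5177 in kept control and 6951 in kept RO-3306 cells. Titles sort the cells into sets A to D, of unstated meaning, with 5 to 10 kept control cells and 6 to 11 kept RO-3306 cells in each. Reads in treated cells came from shorter transcripts. The geometric mean mRNA length of a cell's reads had a median of 1998 nt in control cells and 1769 nt in RO-3306 cells, and the bin of longest mRNAs, when genes were cut into 10 equal bins of length, took 4.50% of control counts against 2.68% of RO-3306 counts. Since 9 of the 10 members have mRNAs longer than 3000 nt, ratios are also given below relative to genes of like length. The labelled cell type was checked too. Of 8 alveolar type II markers, Sftpc, Sftpa1, Sftpd, Slc34a2 and Napsa were at 0 in both groups, and the list came to 9.61 (control) and 5.40 (RO-3306) counts per 1000000 counts of a group (CPM), nearly all from Abca3. The 6 epithelial markers summed to 1.78 and 0.98 CPM, with Krt18 and Cldn4 at 0. The 6 mesenchymal markers, none at 0, came to 5579 CPM (control) and 2523 CPM (RO-3306), and in single cells to 1329 to 11354 and 1263 to 13886 CPM. The part of that difference in the results below was not tested. The 6 macrophage markers summed to 31.2 and 15.9 CPM, nearly all from Lyz2, with Marco at 0. C10 is therefore named here by the line only.

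All 10 members averaged 5 CPM or more, and all 10 had a lower level in RO-3306 than in control when counts were summed over cells. Among all 9374 genes of at least 5 CPM, 5526 were lower. Their summed level was 1015 CPM (1007 to 1022) in the control cells and 561 CPM (556 to 565) in RO-3306. Ratios of RO-3306 to control are on the log2 scale, with 1 CPM added to each level, so that differences of low genes are understated. The median ratio of the members was -0.91, against -0.22 over all 9374 genes of at least 5 CPM. Mki67, Smc4, Ncapd2, Top2a and Ncapd3 were at least 2-fold lower, which is 5 of 10 members where 24.2% of all genes were. No member was at least 2-fold higher, as 12.2% of all genes were. All 10 stayed lower with TMM factors and with DESeq2 size factors, which add 0.21 and 0.24 to every ratio and bring the median of all genes to -0.02 and 0.01. Of all 9374 genes, 4767 were lower with TMM factors and 4657 with DESeq2 size factors. The number of members at least 2-fold lower then became 3, where 19.6% of all genes were, and 2, where 19.2% were, so that count is near the background under the latter. With equal weight for each cell it was 1 of the 9 members that then reached 5 CPM, where 23.4% of all genes were.

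Ratios varied with mRNA length over all genes. The median ratio of all genes was 0.26 in the bin of shortest mRNAs and -0.90 in the longest. After subtracting the median of the same length bin, the members' median was -0.25, and 1 of 10, Mki67, lay at least 2-fold below genes of its length, where 15.1% of all genes did. On that scale Smc4 was at -0.92, Ncapd2 at -0.68, Ncaph at -0.28, Top2a at -0.27, Ncapg2 at -0.23, Ncapd3 at -0.22, Ncapg at -0.18 and Ncaph2 at -0.15, and Smc2 lay 0.27 above its bin.

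**Figure D1:**
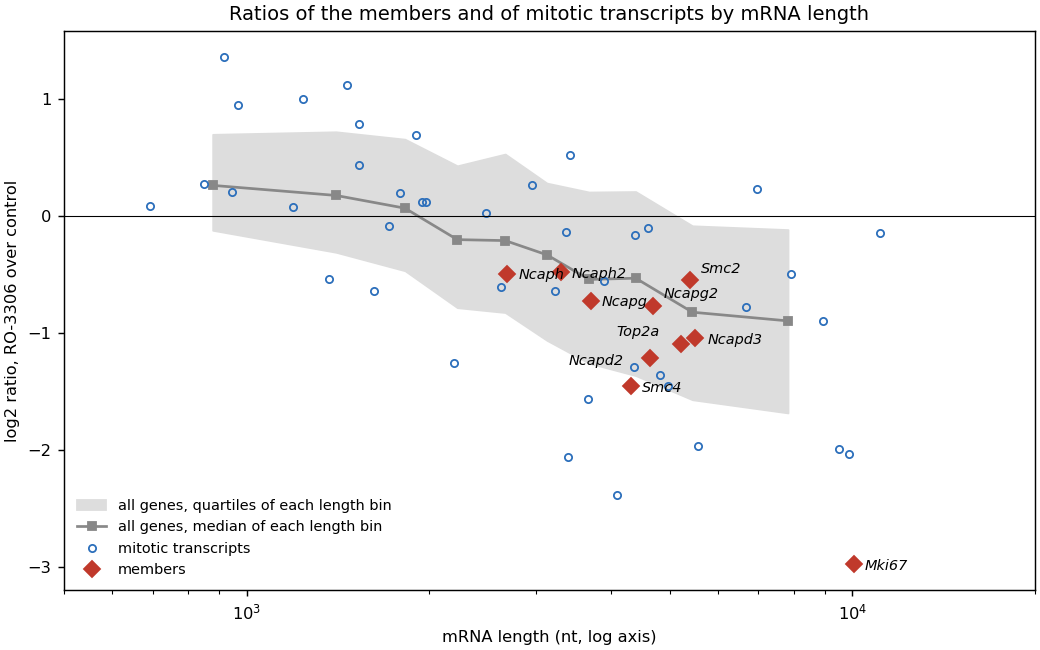
Log2 ratio of RO-3306 over control (vertical) against mRNA length in nt (horizontal, log axis) for the 10 members (red diamonds) and other mitotic transcripts (blue circles), with the median (grey squares) and quartiles (grey band) of all genes in each of 10 bins of length. Mki67 at -2.98 lies below the quartile band, Smc4 at -1.46 lies just below it, and the other 8 members lie within it.

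Mki67 lies at chr7:135291513-135318286 on the minus strand (GRCm39, as for all spans below) and has an mRNA of 10061 nt. In 29 control cells its level ran from 0 (median 0) to 1727 CPM, and in 37 RO-3306 cells from 0 (median 0) to 82.3 CPM. Both groups reach 0, and 6 control cells and no RO-3306 cell were at 100 CPM or more. Those control cells were C3 at 1727 CPM, D8 at 928 CPM, A11 at 304 CPM, B2 at 282 CPM, B8 at 255 CPM and B6 at 125 CPM, so each lettered set has at least 1. Cell C3 had 2109 genes with a count, the fewest of any kept cell. How many of all genes show such a gap between the groups was not computed. At 50 CPM or more there were 9 control and 5 RO-3306 cells, and the 5 treated cells sat close together, between 70.0 and 82.3 CPM.

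Summed over cells, Mki67 was at 105 CPM (103 to 108) in the control cells and 12.5 CPM (11.8 to 13.2) in RO-3306. This is a log2 ratio of -2.98, and without the pseudocount 8.43-fold lower, a ratio of 0.119 (0.111 to 0.126). It was lower in all 4 sets, at -1.85 in A, -2.41 in B, -3.83 in C and -4.37 in D. Sets C and D hold the 2 highest control cells, and the 3 control cells with the most Mki67 counts gave 62.2% of them. Without the cell that gave the most counts in each group, the ratio was -2.80. Of all genes, 233 (2.49%) had a lower ratio than Mki67, as did 48 of the 912 genes (5.26%) in its own length bin, whose median is -0.90. Mki67 had a count in 14 of 29 control cells (48.3%, 29.4% to 67.5%) and in 11 of 37 RO-3306 cells (29.7%, 15.9% to 47%). Thinned to 639000 reads each, the shares were 44% of 25 control and 26.5% of 34 RO-3306 cells, and these intervals overlap. Of 27 libraries with a Mki67 count, 11 had a fractional one, which the authors' counting gives to reads placed at several sites.

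**Figure D2:**
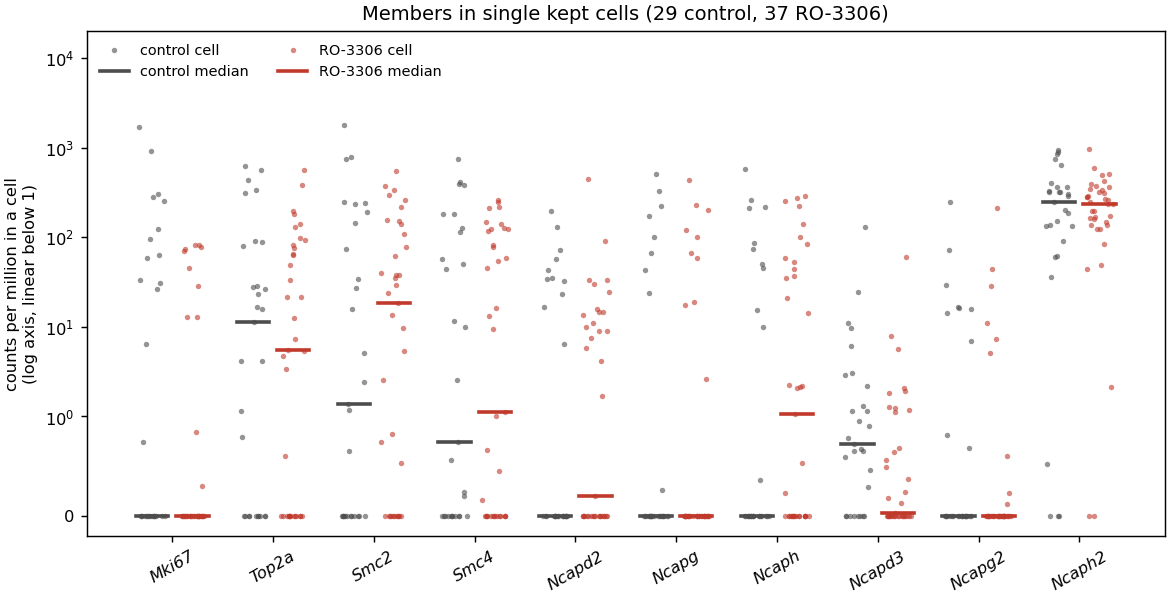
Level of each member in CPM (vertical, log axis that is linear below 1) in each kept cell, 29 control (grey points) and 37 RO-3306 (red points), with the median as a bar. Mki67 reaches 1727 CPM in the control and 82.3 CPM in the RO-3306 cells, while Ncaph2 has medians of 250 and 238 CPM.

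Top2a lies at chr11:98883773-98915037 on the minus strand, with an mRNA of 5221 nt. Its level ran from 0 (median 11.3) to 620 CPM in control cells and from 0 (median 5.47) to 568 CPM in RO-3306 cells. The groups cover nearly the same range, with 5 control and 6 RO-3306 cells at 100 CPM or more. The sums were 139 CPM (136 to 142) and 64.6 CPM (63.0 to 66.2), a log2 ratio of -1.09. That value rests on a few cells of set B: control cell B4 gave 43.7% of the control counts, and the ratio without set B was -0.11. By set it was -1.33 in A, -1.64 in B, 4.52 in C and -0.04 in D, and the control level in set C was only 2.74 CPM. Relative to genes of its length the ratio was -0.27. Top2a had a count in 65.5% (45.7% to 82.1%) of control cells and 62.2% (44.8% to 77.5%) of RO-3306 cells.

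Mki67 and Top2a, which are often read together as markers of cycling cells, thus had unlike ratios. Mki67 counts were 0.759 (0.735 to 0.783) of Top2a counts in control and 0.193 (0.181 to 0.206) in RO-3306. The quotient was lower in RO-3306 in each set: from 0.340 to 0.220 in A, from 0.384 to 0.216 in B, from 54.0 to 0.112 in C and from 7.67 to 0.358 in D. Against Smc2, the quotient of Mki67 counts went from 0.802 (0.777 to 0.828) to 0.140 (0.131 to 0.149) and was again lower in each set. Mki67 has by far the longest mRNA of the 3, and the part of length in these quotients was not tested beyond the comparison with genes of its bin.

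Smc2 and Smc4 encode the pair of ATPase arms that every condensin contains. Smc2 (chr4:52438966-52488365, plus strand, mRNA 5404 nt) ran from 0 (median 1.37) to 1813 CPM in control and from 0 (median 18.7) to 551 CPM in RO-3306. The cell median was thus higher in RO-3306 although the sum was lower, at 89.3 CPM (87.4 to 91.3) against 131 CPM (129 to 134). Its log2 ratio of -0.55 had the same sign in all 4 sets, but in set A it was -0.06, which is less than the shift that another scaling gives. Control cell C3 was the highest for both Mki67 and Smc2, and its other 8 members were at 0.

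Smc4 (chr3:68912071-68941956, plus strand, mRNA 4316 nt) ran from 0 (median 0.74) to 758 CPM in control and from 0 (median 1.12) to 262 CPM in RO-3306. Its sums were 124 CPM (121 to 127) and 44.5 CPM (43.2 to 45.9), a log2 ratio of -1.46 and the second lowest of the members. It was -2.47 in set A, -0.15 in B, 0.52 in C and -1.08 in D, and without set A it was -0.60. As many cells had a count of Smc4 in both groups, 62.1% of control and 62.2% of RO-3306. The products of Smc2 and Smc4 form a dimer, but their transcripts did not keep one quotient: Smc4 counts were 0.944 (0.916 to 0.973) of Smc2 counts in control and 0.499 (0.480 to 0.518) in RO-3306. That quotient differed in direction between sets: it went from 1.68 to 0.310 in A, but from 0.450 to 0.770 in B, from 0.0711 to 0.132 in C and from 1.88 to 3.16 in D.

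The 3 condensin I subunits summed to 153 CPM (150 to 156) in the control cells and 94.9 CPM (92.9 to 96.9) in RO-3306, a log2 ratio of -0.68. In single cells that sum ran from 0 (median 24) to 610 CPM and from 0 (median 25.8) to 709 CPM, so the groups overlapped almost fully. By set the ratio ran from -2.45 in D to -0.09 in B. Ncapd2 (chr6:125144970-125169089, minus strand), a HEAT-repeat subunit, was at 22.8 CPM (21.6 to 24) and 9.27 CPM (8.66 to 9.90), a ratio of -1.21. It had a count in 11 of 29 control and 19 of 37 RO-3306 cells, its ratio was 1.53 in set A, and with equal weight for each cell it was -0.09. Both include RO-3306 cell A11, at 444 CPM, whose counts were 18.1% mitochondrial and 20.5% from the bin of longest mRNAs. Without A11 the ratio was -1.60 in the sums, 0.54 in set A and -1.20 with equal weight, and without set A it was -2.29. Ncapg (chr5:45827212-45858491, plus strand), the other HEAT-repeat subunit, was at 58.8 CPM (57.0 to 60.7) and 35.2 CPM (34 to 36.4), a ratio of -0.73. Lcorl on the opposite strand covers 12.7% of the Ncapg span, and the file headers name neither a strand option nor one for reads over both spans, so counts from that stretch are uncertain. Ncaph (chr2:126945729-126975874, minus strand), the kleisin that closes the ring, was at 71.5 CPM (69.5 to 73.5) and 50.4 CPM (49.0 to 51.9), a ratio of -0.50. Its direction rests on set D, since without that set the ratio was 0.12.

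The 3 condensin II subunits summed to 362 CPM (358 to 367) in the control cells and 255 CPM (252 to 258) in RO-3306, a log2 ratio of -0.51 that ran from -1.55 in set C to 0.32 in set A. Nearly all of it was Ncaph2 (chr15:89239902-89257053, plus strand), the kleisin of condensin II. Ncaph2 was the steadiest member from cell to cell: it ran from 0 (median 250) to 940 CPM in control and from 0 (median 238) to 970 CPM in RO-3306. It had a count in 89.7% (72.6% to 97.8%) of control and 94.6% (81.8% to 99.3%) of RO-3306 cells. Its sums were 342 CPM (337 to 346) and 245 CPM (241 to 248), a ratio of -0.48, the smallest difference of the 10. Some of its reads are uncertain, since 37 of 65 libraries with a count had a fractional one, which the authors' counting gives to reads placed at several sites, and Sco2 and Tymp on the opposite strand cover 7.12% of its span. The HEAT-repeat subunits of condensin II had few counts. Ncapd3 (chr9:26941455-27008667, plus strand) was at 8.35 CPM (7.66 to 9.07) and 3.53 CPM (3.16 to 3.94), a ratio of -1.05 that was lower in all 4 sets. Control cell D8 gave 57.9% of its control counts and RO-3306 cell D9 gave 76.8% of its RO-3306 counts, and 28 of 41 libraries with a count had a fractional one. Ncapg2 (chr12:116368969-116427152, plus strand) was at 11.9 CPM (11.1 to 12.8) and 6.61 CPM (6.10 to 7.16), a ratio of -0.77, with opposite signs between sets.

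**Figure D3:**
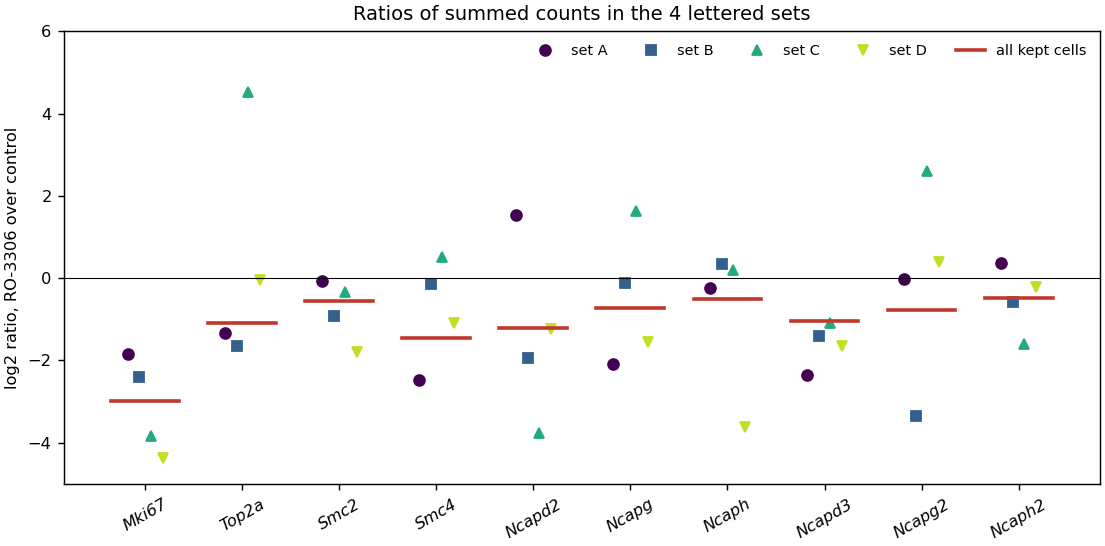
Log2 ratio of RO-3306 over control (vertical) for each member in sets A to D (symbols) and in all kept cells (red bars). Mki67, Smc2 and Ncapd3 lie below 0 in all 4 sets, and Top2a spans -1.64 to 4.52.

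Mki67, Smc2 and Ncapd3 were thus the 3 of 10 members that were lower in the sums and in every set, as 10.3% of all genes were. Apart from the quotients of counts above, levels of different genes were compared as CPM per kb of mRNA, although the authors' counts also take intron reads. On that scale Ncaph2 was highest in both groups, at 104 CPM per kb in control and 74.2 in RO-3306. In control it was followed by Smc4 at 28.7, Top2a at 26.6, Ncaph at 26.5, Smc2 at 24.3, Ncapg at 15.9, Mki67 at 10.5, Ncapd2 at 4.92, Ncapg2 at 2.55 and Ncapd3 at 1.52 CPM per kb. Top2a and Ncaph did not differ there beyond counting error. In RO-3306 the order after Ncaph2 was Ncaph at 18.7, Smc2 at 16.5, Top2a at 12.4, Smc4 at 10.3, Ncapg at 9.50, Ncapd2 at 2.00, Ncapg2 at 1.41, Mki67 at 1.24 and Ncapd3 at 0.64 CPM per kb. Mki67, Smc4 and Top2a stood lower in this order than in control.

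Lower sums did not mean fewer cells with a count. Smc2, Ncapd2, Ncaph and Ncaph2 had a count in a larger share of RO-3306 than of control cells at equal depth. Over all genes, 72.0% had a larger share in RO-3306 at equal depth, and so did 59.8% of the genes with lower sums, against 4 of 10 members. Ncapd3 had the widest gap, with a count in 44% (24.4% to 65.1%) of control and 14.7% (4.95% to 31.1%) of RO-3306 cells at equal depth. That gap depends on low counts. Thinning first rounds fractional counts to whole numbers, so that the smallest fractions become 0. With any count at full depth, the shares for Ncapd3 were 72.4% of control and 51.4% of RO-3306 cells. At 5 or more counts and full depth the shares for Ncapd3 were 24.1% and 10.8%, against 41.4% and 24.3% for Mki67. The cell median was lower in RO-3306 for Top2a, Ncapd3 and Ncaph2, and was 0 in both groups for Mki67, Ncapg and Ncapg2. The highest cell was lower in RO-3306 for 8 members, all but Ncapd2 and Ncaph2. The share of all genes with a lower highest cell was not computed, so that count has no background beside it.

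**Figure D4:**
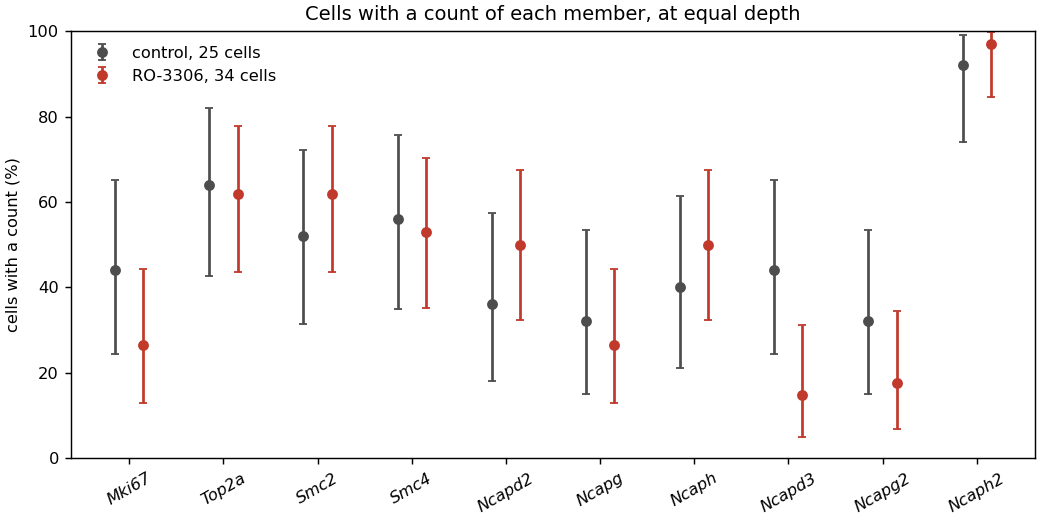
Share of cells with a count of each member (vertical, percent) after thinning to 639000 reads, in 25 control (grey) and 34 RO-3306 (red) cells; bars are exact Clopper-Pearson 95% intervals. Ncapd3 has the widest gap, 44% against 14.7%, and the intervals of all 10 members overlap between the groups.

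Most pairs of members had low correlations across cells. Among 45 pairs, the Spearman correlation across 25 control cells at equal depth had a median of 0.17 and was positive in 34, and across 34 RO-3306 cells it had a median of 0.03 and was positive in 25. The highest in control was Smc2 with Ncapd2 at 0.76, followed by Ncapd2 with Ncaph and Smc2 with Ncaph, both at 0.58 to 0.59, which are all subunits of condensin I. In RO-3306 these pairs were at -0.07, 0.12 and 0.06. Ncapg, also of condensin I, was in control at 0.07 with Smc2, 0.16 with Ncapd2 and 0.18 with Ncaph. Top2a with Smc2 was at 0.50 in control, and Mki67 with Smc2 at 0.46. Mki67 with Top2a was at 0.50 in control and 0.12 in RO-3306. The highest pair in RO-3306 was at 0.40. These points share libraries and many zeros, and they are descriptions with no test of a difference between the groups. The number of members with a count in a cell had a median of 4 of 10 in control and 5 of 10 in RO-3306 at equal depth.

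**Figure D5:**
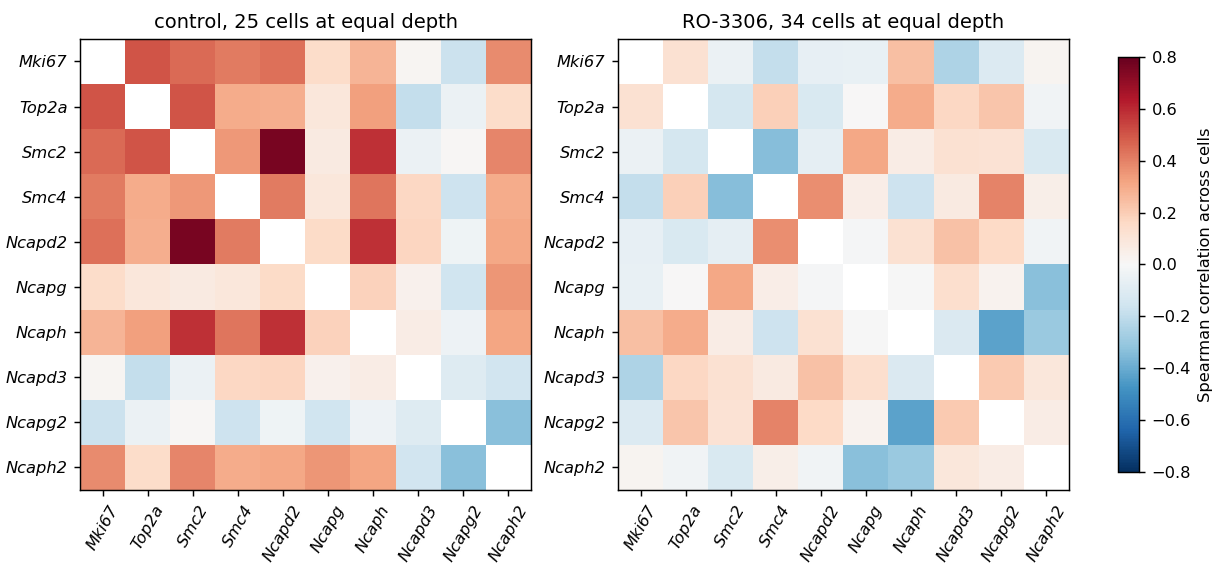
Spearman correlation across cells (colour) between members, in 25 control cells (left) and 34 RO-3306 cells (right) thinned to the same depth. The block around Smc2, Ncapd2 and Ncaph reaches 0.76 in control, where Ncapg is at 0.07 to 0.18 with them, and no pair exceeds 0.40 in RO-3306.

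The genes whose level across cells was most like the summed level of the members were Ccna2 (cyclin A), Cdc20 (an activator of the anaphase-promoting complex), Cdkn2d (a CDK inhibitor), Kat7 (a histone acetyltransferase) and Aurka (a mitotic kinase). They were ranked among 3696 genes of at least 50 CPM by the smaller of the correlations in the 2 groups, which was 0.44 to 0.47 for these 5 and had a median of -0.05 over all ranked genes. Ncaph2 weighs most in the summed level of the members: over kept cells it gave 342 of 1015 CPM in control and 245 of 561 CPM in RO-3306. None of the 5 was among the first 50 by Pearson correlation of log values, so the order depends on the measure. Their summed levels did not all differ as the members' did. Ccna2 had a log2 ratio of -0.87, Kat7 of -0.92 and Cdkn2d of -0.13, while Cdc20 was at 0.19 and Aurka at 0.69.

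Related gene groups give the setting for the members. The 4 other topoisomerase genes tested (Top1, Top2b, Top3a and Top3b) were all lower, and 3 were at least 2-fold lower, against 24.2% of all genes, with a median ratio of -1.67 (-0.95 relative to genes of like length), but none had the same sign in all 4 sets. The list of 18 cohesin and SMC5/6 genes also holds genes that load, release or cleave cohesin, and Smchd1. Of these 18, 12 were lower, 9 at least 2-fold lower and 2 at least 2-fold higher. Their median was -0.83, or -0.12 relative to genes of like length. Under both other scalings 11 were lower and 8 at least 2-fold lower. Smc1a, a cohesin arm, was at 139 (control) and 25.2 CPM (RO-3306), and Stag1 was at 32.4 and 6.87 CPM. Pttg1, the securin that restrains separase, was at 406 and 659 CPM, and Mau2, part of the cohesin loader, at 2.16 and 10.8 CPM. Of 9 genes of the chromosome periphery or of condensin regulation, 8 reached 5 CPM, 5 were lower, 2 at least 2-fold lower and 1, Mcph1 at 1.72, at least 2-fold higher (median -0.83, or -0.21 relative to genes of like length). The 2 of 8 are near the share over all genes, and under both other scalings 1 of 8 was at least 2-fold lower. Mcph1 had a count in only 2 control and 8 RO-3306 cells, and it was not higher in all 4 sets. The nucleolar genes Fbl and Ncl, whose products join Ki-67 at the chromosome surface, had ratios of -1.30 and -1.04. Relative to genes of like length they were at -1.47 and -0.14. The value for Ncl rests on an annotated transcript of 8202 nt, and whether its reads come from that transcript was not tested. Npm1, in the same list, was at 1963 CPM (control) and 1967 CPM (RO-3306).

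Other mitotic transcripts did not share the low ratio of Mki67 as a group. Of 41 that reached 5 CPM, 23 were lower and 18 higher, 10 at least 2-fold lower and 3 at least 2-fold higher, with a median of -0.14. The 2-fold lower share, 24.4%, was close to that over all genes, 24.2%. With TMM and DESeq2 factors this split turned, to 18 lower and 23 higher, with medians of 0.06 and 0.09. Their ratios followed length: the median was 0.21 for 17 mRNAs under 2000 nt, -0.58 for 10 of 2000 to 4000 nt and -1.10 for 14 over 4000 nt, where all genes had medians of 0.18, -0.29 and -0.74. Cit, a kinase of cytokinesis with an mRNA of 9514 nt, had a ratio of -2.0, close in length to Mki67 but less low. Bub1b, a spindle checkpoint kinase with an mRNA of 3668 nt, had a ratio of -1.56. Cdkn3, a phosphatase that acts on CDKs, with an mRNA of 917 nt, had a ratio of 1.36. Cenpa, the centromeric histone, with an mRNA of 1466 nt, had 191 CPM (control) and 417 CPM (RO-3306).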

How the data were processed

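Expected counts per gene were deposited for each of the 96 single-cell SMART-seq v4 libraries. The authors made them with featureCounts 2.0.3 over whole gene spans of the GRCm39 RefSeq annotation, with reads placed at several sites split into fractions and no strand option, per the file headers. The submitters' processing notes also name FastQC and STAR. Cells needed at least 50000 counts and 1000 genes. Counts were summed over kept cells per treatment and scaled to a total of 1000000 (CPM), and log2 ratios used a pseudocount of 1 CPM. Fractional counts were rounded for intervals (Poisson, Clopper-Pearson and conditional binomial, at 95%) and for thinning to 639000 reads. Reads carry no molecular identifiers, so intervals cover counting error only. No doublet caller was run on sorted single cells, and no 2 kept libraries were identical.

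mRNA lengths came by symbol from GENCODE M21 principal transcripts and were found for 97.2% of genes of at least 5 CPM. Promoters came from RefSeq. The members and lists were chosen with earlier results of these data known. All 10 members are named, and of each other list up to 2 genes at each end of the ratios with the same sign in all 4 sets. For likeness, the first 5 genes are named. Further genes were named after their values were seen. Alternatives used edgeR 4.0.16 (TMM) and DESeq2 1.42.0 factors in R 4.3.3. The rest used Python 3.11.15, numpy 2.4.6, pandas 2.3.3 and scipy 1.17.1, and the ratio was tested on simulated cells.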

Additional observations from a re-analysis of the deposited data

Results flagged for a closer look

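The filter on cells left out 19 control libraries (341166 counts in all) and 11 RO-3306 libraries (1162600 counts). Among these RO-3306 libraries Mki67 was at 116.119 CPM (97.4 to 137) and Smc4 at 215.895 CPM (190 to 244), while the left-out control libraries held 0 counts of both, which allows up to 10.8 CPM. Nearly all of this came from 1 library, D5, which held 99.3% of those Mki67 counts and 98.4% of those Smc4 counts. That library had 943 genes with a count, under the minimum of 1000, and 87.3% of its counts were mitochondrial. The sums are small, 135 counts of Mki67 and 251 of Smc4. The cause was not tested.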

How the results depend on the processing

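The 40 results were recomputed under alternatives, giving 446 values, of which 276 moved by less than the counting interval or 1.5 times. The rest include the likeness values by Pearson correlation, which had no interval to be set against. The others moved further, 3 of them to the other sign. Of 180 ratios for single members, 177 were lower in RO-3306. The sign changes were Smc2, at 0.27 relative to genes of like mRNA length, by the principal and by the longest coding transcript, and Ncaph, at 0.12 without set D. Mki67 was at -2.78 with TMM factors, -2.75 with DESeq2 size factors, -3.27 with equal weight per cell, -2.51 after thinning, -2.84 with no filter on cells and -2.75 with at least 500000 counts and 3000 genes. Relative to the median of the same length bin it was -2.08 by mRNA length, -2.68 by gene span and -2.10 by longest coding transcript, and leaving out a set or the top cells gave -3.37 to -2.61. In the same order, Top2a was at -0.88 (TMM), -0.86 (DESeq2), -0.60 (equal weight) and -0.79 (thinned), then -0.27 (mRNA length), -0.80 (gene span) and -0.27 (longest transcript), with -1.51 to -0.11 on leaving out. The members' median was -0.72, -0.70, -0.60 and -0.78 under the first 4, -0.97 with a pseudocount of 0.1 CPM, -0.25, -0.47 and -0.26 under the length settings, and -0.93 to -0.77 on leaving out. The 5 members at least 2-fold lower became 3 (TMM), 2 (DESeq2), 1 (equal weight), 3 (thinned), 1 (mRNA length), 2 (gene span) and 1 (longest transcript), and 3 to 5 on leaving out. The comparisons by gene span, by longest transcript and without cell A11 were chosen after seeing the data. The cause was not tested. With 1 sample per treatment, counting error understates the spread between cultures, which no value here measures. No paired analysis was possible because the labels name no replicates and no test was run.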
